A study of Homo sapiens with 12 samples.

Results

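FOXA2 binding in SW620 cells was mapped by chromatin immunoprecipitation and sequencing (ChIP-seq), and 5549 of the 12372 called peaks lay where no active histone mark had been called. These 5549 peaks overlapped, by 1 bp or more, no region of H3K4me2, H3K27ac or H3K4me3 of the same line and are called unmarked here. The peaks were selected on the called SW620 regions of FOXA2 and of these 3 active marks, so the unmarked share of 44.9% (95% Wilson interval 44.0 to 45.7) is a description and not a finding. Unmarked means that no region passed the caller's thresholds, which required 4-fold enrichment over input for the histone marks, and not that the mark was shown to be missing.

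The series profiled SW480 and SW620, human colorectal adenocarcinoma cell lines. The labels class SW480 as Dukes' type B and SW620 as type C, and both were grown without treatment in DMEM with serum. Each line contributed 1 library for each of FOXA2, H3K4me2, H3K4me3, H3K27ac and H3K36me3 besides an input library, so no value below has a replicate and no test between the lines was possible. The SW620 libraries held between 12791745 tags (H3K4me3) and 47867295 tags (H3K27ac). Of the H3K27ac tags, 27.5% lay in called regions in SW620 and 58.5% in SW480. For H3K4me3 these shares were 52% and 73.0%, and for H3K4me2 50.7% and 45.8%. What these differences contribute to a position being unmarked in SW620 and marked in SW480 was not tested. The FOXA2 libraries were of similar depth, with 18036456 tags in SW620 and 19473583 in SW480, but 2.25% of the SW620 tags and 0.590% of the SW480 tags lay in peaks. Intervals are 95% Wilson intervals, which cover counting error only and treat neighbouring peaks as independent. Coordinates are hg19, counted from 1, and no genes are named because no annotation of that build was used here.

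FOXA2 is a forkhead transcription factor of foregut endoderm, liver and other endodermal epithelia. It is the textbook case of a pioneer factor, which can bind its sites on nucleosomal DNA, also where the chromatin is otherwise closed. H3K4me2 and H3K27ac mark enhancers and promoters, H3K4me3 marks promoters, and H3K36me3 is laid down over the bodies of transcribed genes. A FOXA2 peak outside the first 3 of these marks is thus a called binding position away from called enhancers and promoters of the same cells.

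The remaining SW620 peaks fell into 3 classes that serve for comparison below. H3K4me3 covered 1616 of them. A further 2914 lay on H3K27ac without H3K4me3, and 2293 lay on H3K4me2 as their one active mark. Most positions were clear of the limit between marked and unmarked. Among the marked peaks, 6261 (91.8%) lay on marked sequence over their whole length. Only 57 unmarked peaks came within 100 bp of a mark, and 111 marked peaks overlapped one by 100 bp or less. Just inside the limit lay the unmarked peaks on chromosome 7 from 41286979 to 41287297 and on chromosome 11 from 12245100 to 12245418, each directly beside a marked region. Just outside it lay a peak on chromosome 9 from 93422239 to 93422557, which overlapped an H3K27ac region by 3 bp.

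The first question was how far unmarked peaks lay from marked chromatin. The median distance to the nearest active mark of SW620 was 25811 bp, and the middle 50% of peaks lay between 8021 and 81480 bp away. Of the 5549 peaks, 280 (5.05%) were within 1 kb of a mark, 949 (17.1%) within 5 kb, 1611 (29.0%) within 10 kb and 4378 (78.9%) within 100 kb. The farthest lay 3419543 bp from any active mark.

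Unmarked FOXA2 peaks of SW620 were nonetheless nearer to marks than the unmarked sequence as a whole. Of all unmarked bases between the first and last region of each chromosome, 10.6% lay within 5 kb of an SW620 active mark, against 17.1% (16.1 to 18.1) of the unmarked peaks. Within 10 kb these shares were 18.5% of the span and 29.0% (27.9 to 30.2) of the peaks, and within 50 kb they were 49.6% and 66.1% (64.8 to 67.3). The SW480 FOXA2 list gave another picture. Its 4854 unmarked peaks lay within 5 kb of an SW480 mark in 11.2% of cases (10.3 to 12.1), where 9.97% of the unmarked span did, and within 50 kb in 51.0% (49.6 to 52.4), where 48.4% of the span did. Their median distance was 48196.5 bp. In SW480 the peaks were thus only slightly above the span. Within the SW620 list, 19.5% (17.9 to 21.2) of unmarked SW620 peaks in the first-listed 50% of the list were within 5 kb, and 15.4% (14.2 to 16.7) of those in the last-listed 50%. Whether the difference between the lines comes from binding or from the lower share of tags in peaks in SW480 cannot be told apart with 1 library each.

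**Figure D1:**
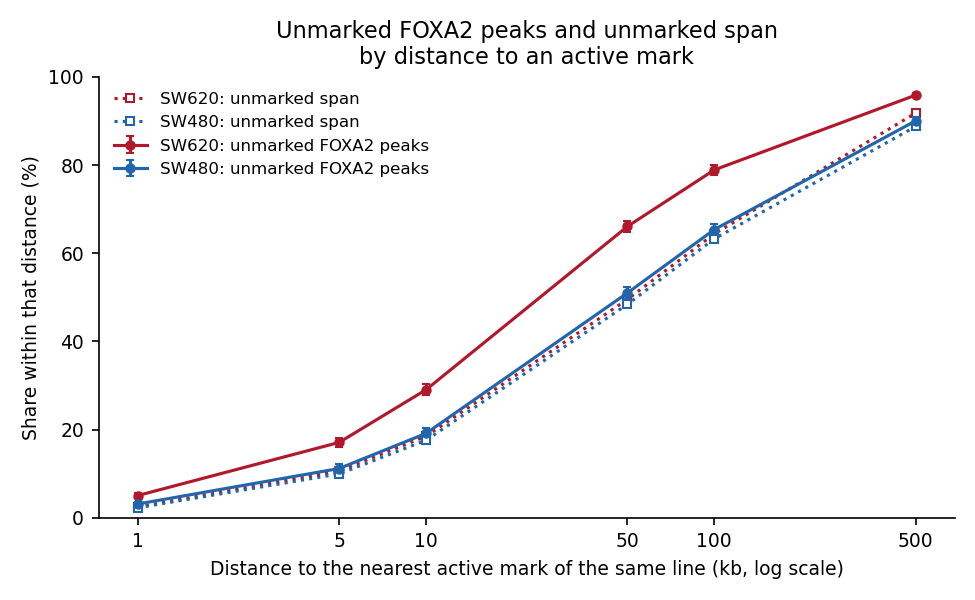
Share of unmarked FOXA2 peaks (filled circles, with 95% Wilson intervals) and of unmarked bases of the covered span (open squares) that lay within the distance on the horizontal axis (kb, log scale) of an active mark of the same line. SW620 peaks lay above the span at each distance, 29.0% against 18.5% within 10 kb, while SW480 peaks were little above it, 19.1% against 17.6%.

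The region nearest to an unmarked peak was most often H3K4me2. It was the nearest mark for 4019 peaks (72.4%), H3K27ac for 1085 (19.6%) and H3K4me3 for 444 (8.0%), and 1 peak was equally near to H3K4me2 and H3K27ac. H3K4me2 also has the longest list of the 3 marks, with 35114 regions in SW620 against 22236 for H3K27ac and 16315 for H3K4me3. For 1322 unmarked peaks (23.8%) the nearest marked region itself held an SW620 FOXA2 peak, whereas 15.8% (15.5 to 16.1) of all active regions of the line did. The nearest region was also called in SW480 for 3342 peaks (60.2%, 58.9 to 61.5), against 76.0% (75.7 to 76.3) of all active regions. One region can be nearest to several peaks, so these shares are weighted by peaks. The 3 marks also stand in unlike proportions among the nearest regions and among all active regions, and the shares were not adjusted for this.

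The surroundings of unmarked peaks held fewer marked regions than those of the marked classes, which follows in part from the rule because a marked peak brings its own region. Within 100 kb an unmarked peak had a median of 2 H3K4me2 regions, 1 H3K27ac region and 1 H3K4me3 region in SW620. Peaks on H3K27ac without H3K4me3 had medians of 7, 5 and 2. For H3K36me3, which the rule did not use, the medians were 0 around unmarked peaks, 1 around peaks on H3K4me2 alone, 4 around peaks on H3K27ac without H3K4me3 and 5 around peaks on H3K4me3. No H3K36me3 region at all lay within 100 kb of 57.1% of the unmarked peaks. The same held for 45.9% of peaks on H3K4me2 alone, 30.8% on H3K27ac without H3K4me3 and 28.5% on H3K4me3.

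The state of the same positions in SW480 was read from the SW480 lists, which took no part in the choice of peaks. Of all 12372 SW620 peaks, 33.2% overlapped an active mark of SW480, and of the unmarked ones 371 did (6.69%, 6.06 to 7.37). The other 5178 (93.3%) were unmarked in both lines, and these made up 41.9% of the whole SW620 list. Peaks in the other classes lay on an SW480 mark far more often, in 87.6% (85.9 to 89.1) of cases for H3K4me3, 51.5% (49.7 to 53.4) for H3K27ac without H3K4me3 and 35.9% (34.0 to 37.9) for H3K4me2 alone. The lines have many marked regions in common, so a low share at positions without an SW620 mark was built into the comparison to some extent. Within 5 kb of an SW480 active mark lay 990 unmarked peaks (17.8%, 16.9 to 18.9), where 43.7% of all SW620 peaks did.

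By mark, 303 unmarked peaks (5.46%) lay on H3K4me2 of SW480, where 30.2% of all SW620 peaks did. H3K27ac of SW480 covered 176 (3.17%), against 24.3% of all peaks. H3K4me3 of SW480 covered 23 (0.414%), against 13.0% of all peaks. Sorted by their combined state in SW480, the 371 peaks comprised 178 on H3K4me2 alone, 170 on H3K27ac without H3K4me3 and 23 on H3K4me3.

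**Figure D2:**
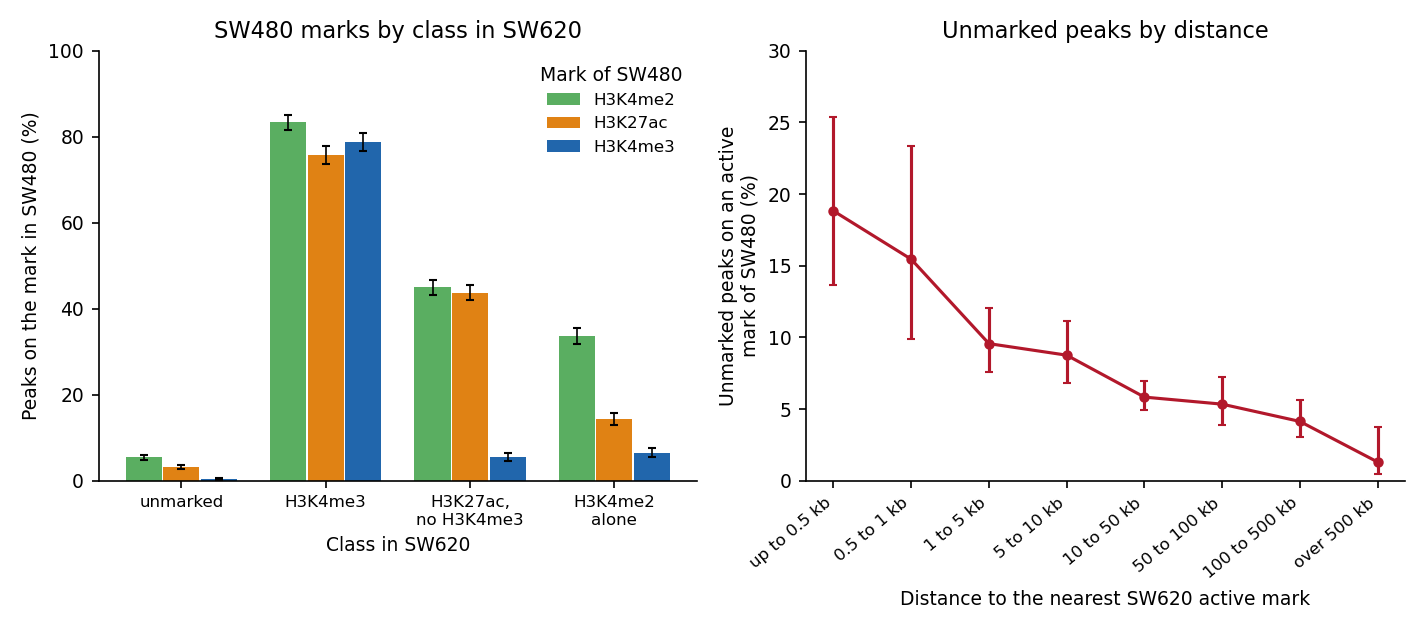
Left, share of SW620 FOXA2 peaks that lay on H3K4me2, H3K27ac or H3K4me3 of SW480, for each class in SW620. Right, share of the unmarked peaks on any active mark of SW480, by distance to the nearest SW620 active mark. Bars and points carry 95% Wilson intervals. Unmarked peaks were on SW480 H3K4me2 in 5.46% of cases, and the share on any SW480 mark ran from 18.8% within 0.5 kb of an SW620 mark to 1.31% beyond 500 kb.

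SW480 marks at unmarked peaks were more frequent close to SW620 marks. Within 0.5 kb of an SW620 mark, 32 of 170 unmarked peaks lay on an SW480 mark (18.8%, 13.7 to 25.4). Between 1 and 5 kb 64 of 669 did (9.57%), between 10 and 50 kb 120 of 2056 (5.84%, 4.90 to 6.93), and beyond 500 kb 3 of 229 (1.31%, 0.447 to 3.78). The SW480 regions that held unmarked peaks were mostly absent from the SW620 list. Of the 301 SW480 H3K4me2 regions concerned, 39 (13.0%) were also called in SW620, and of the 179 H3K27ac regions 24 (13.4%) were. Over the whole SW480 lists these shares were 76.8% and 68.0%, but a region present in both lines can hold an unmarked peak only in the part that SW620 lacks. The median width of the H3K4me2 regions was 1311 bp, against 2117 bp over the list, and that of the H3K27ac regions was 2561 bp, against 2377 bp.

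The first 5 unmarked peaks of the list on SW480 H3K27ac were described individually. The earliest, 4th in the whole list, lay on chromosome 7 from 157253955 to 157254273, 67 bp from an SW620 mark, and was a FOXA2 peak in SW480 as well. The next lay on chromosome 22 from 37724909 to 37725227, with H3K4me2 and H3K27ac in SW480 and 5229 bp from the nearest SW620 mark, and it too was a FOXA2 peak in both lines. A peak on chromosome 17 from 31149575 to 31149893 was 4433 bp from an SW620 mark. On chromosome 11, the peak from 11268075 to 11268393 lay 311658 bp from any SW620 mark although SW480 had H3K27ac and a FOXA2 peak there. The peak from 12014011 to 12014329 on the same chromosome lay 359 bp from an SW620 mark, with H3K4me2 and H3K27ac in SW480. Of these 5 positions, 3 were FOXA2 peaks in both lines, but all 5 come from the first-listed decile, where such matches were most frequent. Of all 371 unmarked peaks on any active mark of SW480, 29 overlapped an SW480 FOXA2 peak.

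H3K36me3 was about as frequent at unmarked peaks as over the list. It covered 188 of them in SW620 (3.39%, 2.94 to 3.90), where 3.31% of all SW620 peaks lay on it, and 230 in SW480 (4.14%, 3.65 to 4.70), where 4.26% of all did. Both lines had it at 119 unmarked peaks (2.14%), where 1.90% of all did, SW620 alone at 69 and SW480 alone at 111. Among the marked classes the SW620 share was 5.08% (4.34 to 5.94) on H3K27ac without H3K4me3, 2.29% (1.67 to 3.14) on H3K4me3 and 1.61% (1.17 to 2.22) on H3K4me2 alone. For H3K36me3 of SW620 the interval of the unmarked peaks thus lay below that of the acetylated class and above that of peaks on H3K4me2 alone. For H3K36me3 of SW480 the share was 5.94% (5.14 to 6.85) in the acetylated class and 3.40% (2.73 to 4.23) on H3K4me2 alone, and the latter interval overlaps that of the unmarked peaks. For H3K36me3 of both lines, the 2.51% (2.00 to 3.14) of the acetylated class overlaps the 2.14% (1.80 to 2.56) of the unmarked peaks.

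The same share over all SW620 peaks was not counted by decile, but among unmarked peaks the share on SW620 H3K36me3 stood highest at the end of the list. In the first-listed decile 7 of 409 unmarked peaks were on SW620 H3K36me3 (1.71%, 0.831 to 3.49), and in the last-listed decile 46 of 777 (5.92%, 4.47 to 7.81), while the deciles between ran from 1.95% to 3.53% without a steady course. By distance from an SW620 active mark it was 5.88% (3.23 to 10.5) within 0.5 kb, 3.64% (1.42 to 8.98) at 0.5 to 1 kb and 6.19% (4.60 to 8.29) at 5 to 10 kb, and it was 0.531% (0.227 to 1.24) at 100 to 500 kb. Beyond 500 kb it was 0 of 229, with an upper limit of 1.65%. Within 10 kb of an SW620 H3K36me3 region lay 12.7% (11.9 to 13.6) of the unmarked peaks, where 20.5% of all SW620 peaks did. The first in the list lay on chromosome 1 from 27158279 to 27158597, 3433 bp from an active mark, in 483rd place. The others of the first 5 were on chromosome 10 from 127529526 to 127529844 and from 104488960 to 104489278, on chromosome 20 from 46271401 to 46271719 and on chromosome 8 from 22253856 to 22254174. All 5 were unmarked in SW480 too, and the last of them was also a FOXA2 peak there.

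FOXA2 itself was called at few unmarked positions in SW480. An SW480 FOXA2 peak overlapped 144 unmarked SW620 peaks (2.60%, 2.21 to 3.05), where 1.91% of all SW620 peaks were matched. The share was 1.05% (0.658 to 1.68) on H3K4me3, 1.34% (0.981 to 1.82) on H3K27ac without H3K4me3 and 1.57% (1.14 to 2.17) on H3K4me2 alone, each with an interval below that of the unmarked peaks. Of the 236 SW620 peaks matched in SW480, 144 were unmarked in SW620. The SW480 FOXA2 list was itself mostly unmarked, with 4854 of its 5207 peaks (93.2%, 92.5 to 93.9) outside the active marks of SW480. What this contributes to the higher matched share of unmarked SW620 peaks was not tested. When SW480 peaks within 10 kb were counted as well, the share was 6.83% (6.20 to 7.52) for unmarked peaks, against 6.13% of all SW620 peaks and 4.33% (3.44 to 5.44) of those on H3K4me3.

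The centres of the matched peaks lay close together, which the overlap and the peak widths fix in large part. The median distance between the centres of the SW620 and SW480 peaks was 27 bp, with a highest value of 204 bp, for peaks 319 bp wide in SW620 and 127 bp wide in SW480. They lay early in both lists, with 98 (68.1%) in the first-listed 50% for SW620 and 101 (70.1%) in that for SW480. In the first-listed 50% of the SW620 list 4.29% of unmarked peaks were matched. The matched share of all SW620 peaks in that part was not counted, so the rise cannot be called particular to unmarked peaks. An active mark of SW480 covered 29 of the 144 (20.1%), against 6.69% of all unmarked and 33.2% of all SW620 peaks. Their median distance to an SW620 mark was 27139.5 bp, against 25811 bp over all unmarked peaks. Every chromosome held at least 1, and the most, 16, were on chromosome 2. After the peak on chromosome 7 already described, the next in list order lay on chromosome 21 from 37367827 to 37368145 and on chromosome 20 from 8137171 to 8137489. The first of these was unmarked in both lines, 19466 bp from a mark in SW620, and the second lay 250 bp from an SW620 mark and on H3K4me2 in SW480. The peak on chromosome 22 already described followed, and then 1 on chromosome 2 from 1218192 to 1218510, unmarked in both lines and 151103 bp from an SW620 mark.

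List order was examined because the deposited score is 1 in every row and gives no peak strength. The list consists of 278 successive runs in which chromosomes come in alphabetical order, with 254 of them in or reaching into the first-listed 50% and up to 541 peaks in 1 run. This is the layout of a list sorted by a measure with many ties, and that measure is a detail not given in the sources used here. Unmarked peaks lay towards the end. Their median position was 7377, against 6211 for peaks on H3K4me3, 5176 for H3K4me2 alone and 4725.5 for H3K27ac without H3K4me3. The first 6186 of the 12372 entries held 41.2% (39.9 to 42.5) of the unmarked peaks, against 61.3% (59.5 to 63.1) of those on H3K27ac without H3K4me3.

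The unmarked share was higher late in the list than early, though not at every step. It was 33.1% (30.5 to 35.7) in the first decile, 32.1% (29.6 to 34.8) in the second, 45.2% in the fifth, 41.4% in the sixth, 53.4% in the eighth and 62.8% (60.0 to 65.4) in the last. Peaks on H3K27ac without H3K4me3 ran the other way, from 36.5% (33.9 to 39.3) in the first decile to 14.2% (12.4 to 16.3) in the last. The share of peaks on H3K4me3 stayed between 9.14% and 15.4%. Most FOXA2 peaks of the last 3 deciles were outside active marks, and most of the first 7 were on them.

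**Figure D3:**
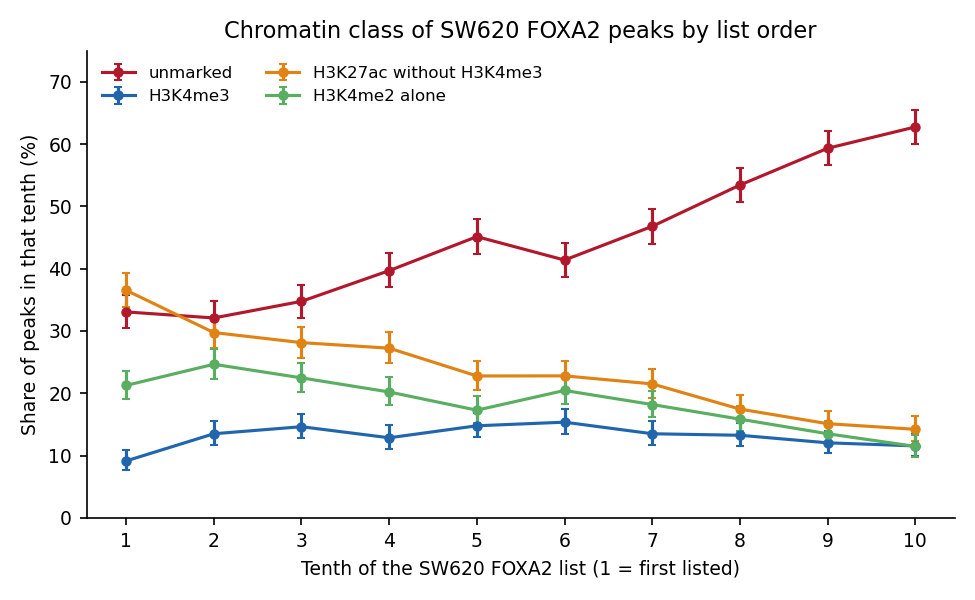
Share of SW620 FOXA2 peaks in each chromatin class (points, with 95% Wilson intervals) for 10 equal parts of the list, from the first listed to the last. The unmarked share was 33.1% in the first decile and 62.8% in the last, while that of peaks on H3K27ac without H3K4me3 went from 36.5% to 14.2%.

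The very start of the list departed from this course. Unmarked peaks made up 27 of the first 50 entries (54.0%, 40.4 to 67.0), 43 of the first 100 (43.0%, 33.7 to 52.8) and 331 of the first 1000 (33.1%, 30.3 to 36.1). Of the first 5 unmarked peaks, 4 lay on chromosome 16 between 46386609 and 46395415, with 258671 to 267159 bp to the nearest SW620 mark and with the nearest SW480 active mark 192 to 201 kb away. The peak from 46386609 to 46386927 bordered the longest stretch of chromosome 16 that held no region of any of the 10 lists. The remaining one was the peak on chromosome 7 described above.

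Each chromosome was therefore searched, after the positions had been seen, for its longest stretch without a region of any list. Sequence before the first or after the last region of a chromosome was not searched. On 20 of 24 chromosomes the longest stretch was at least 3 Mb long. The hg19 assembly represents centromeres as long runs of unknown bases where no read can be placed, and whether each stretch is such a run was not checked here. Within 1 Mb of a stretch lay 338 unmarked peaks (6.09%, 5.49 to 6.75), where 3.18% of all SW620 peaks did and 1.61% of the covered span does. The share was between 0.686% and 0.990% in the 3 marked classes, and 1.73% (1.40 to 2.14) among the unmarked FOXA2 peaks of SW480. A peak that itself formed the edge of a stretch counts as near it. This applied to 30 of the 338, and 308 remained without them.

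The unmarked peaks beside these stretches often stood together. Another SW620 FOXA2 peak lay within 10 kb of 210 of the 338 (62.1%, 56.9 to 67.1), against 931 of the 5211 other unmarked peaks (17.9%, 16.9 to 18.9). Over all SW620 peaks 23.6% had such a neighbour, and over all unmarked peaks 20.6% did. A neighbour of the same class within 10 kb stood beside 732 unmarked peaks (13.2%), where 13.6% of all SW620 peaks had one of their own class. In the first-listed decile 71 of 409 unmarked peaks (17.4%, 14.0 to 21.3) were beside a stretch, and in the last decile 26 of 777 (3.35%, 2.29 to 4.86). Only the first decile stood apart, since the second held 7.56% (5.34 to 10.6) and the third to the ninth between 4.24% and 6.39%. Among the first 100 entries they were 22 of the 43 unmarked peaks, and 10 of these 22 were on chromosome 16, where the peaks that prompted the search lie. An SW480 FOXA2 peak matched 2 of the 338 (0.592%, 0.162 to 2.13), against 2.60% of all unmarked and 1.91% of all SW620 peaks. An SW480 active mark also covered 2, against 6.69% of all unmarked and 33.2% of all SW620 peaks, but the stretches were defined by the absence of regions of these lists too. Their median distance to an SW620 mark was 290582 bp, against 23241 bp for the other unmarked peaks, a difference that the definition fixes in part because no mark lies on the side of the stretch. With all peaks near a stretch left out, the unmarked share was 29.0% (26.5 to 31.7) in the first-listed decile and 62.1% (59.3 to 64.8) in the last.

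**Figure D4:**
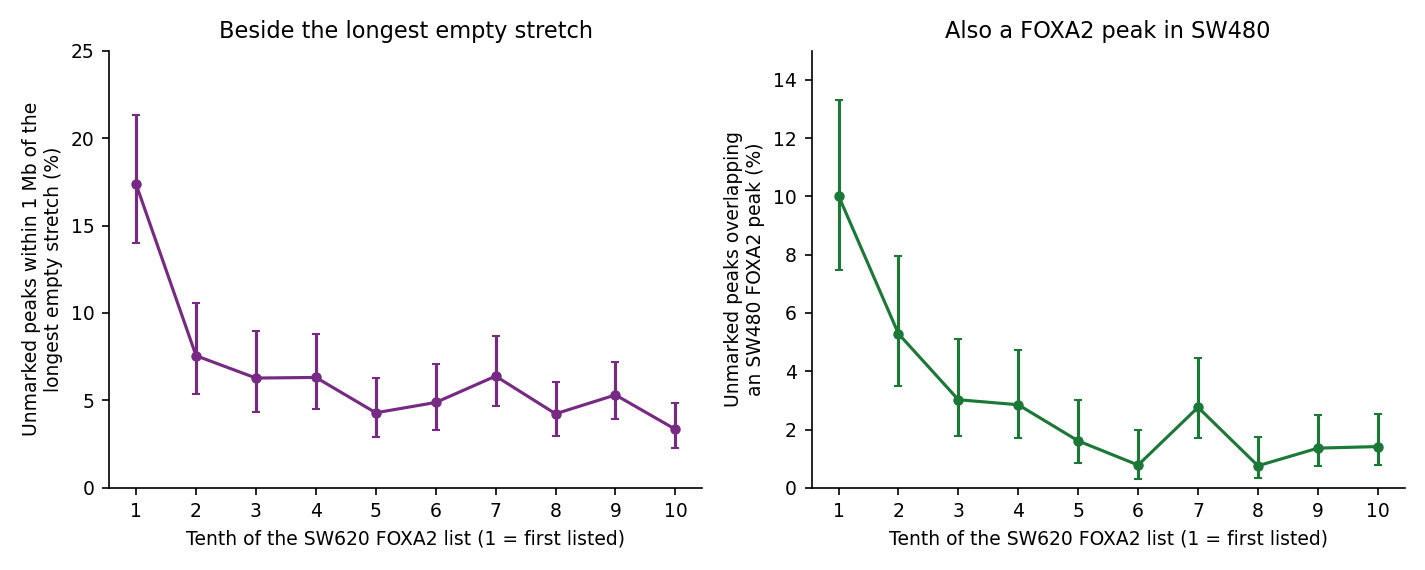
Share of the unmarked SW620 FOXA2 peaks in each decile of the list that lay within 1 Mb of the longest stretch of their chromosome without any region (left) and that overlapped an SW480 FOXA2 peak (right). Points carry 95% Wilson intervals. The first decile stood highest in both, with 17.4% and 10.0%. The share of all SW620 peaks matched in SW480 was not counted by decile.

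Unmarked peaks were also counted in windows of 1 Mb. Of 2030 windows with at least 1 unmarked peak, 1540 held 1 to 3 and 41 held at least 10. The fullest was chromosome 4 between 49 and 50 Mb, with 38 unmarked peaks, 3 SW480 FOXA2 peaks and 1 SW620 active region. On chromosome 21 the window from 10 to 11 Mb held 30 unmarked and 5 SW480 peaks. The window from 61 to 62 Mb held 22 and 0 on chromosome 7, and 21 and 1 on chromosome X. A further 20 each lay on chromosome 21 (9 to 10 Mb) and on chromosome 1 (142 to 143 Mb). In these 6 windows all SW620 FOXA2 peaks were unmarked. Together the 41 windows held 585 of the 5549 unmarked SW620 peaks (10.5%) and 88 of the 5207 SW480 FOXA2 peaks. The windows were chosen by their count of unmarked SW620 peaks, so these counts cannot be read as a difference between the lines. The share of all SW620 peaks in these windows was not counted. Of the 41, 10 came within 1 Mb of a longest empty stretch. Some missed that limit narrowly, as on chromosome 21 from 9 to 10 Mb (1.17 Mb away) and chromosome 16 from 33 to 34 Mb (1.28 Mb). Farther off were chromosome 15 from 20 to 21 Mb, with 18 unmarked peaks, and chromosome 8 from 129 to 130 Mb, with 15. The longest stretch found on chromosome 15 was 1.62 Mb, starting at 46241971. Sequence beyond the first region of a chromosome was not searched, so nearness to its unassembled ends was not tested.

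Chromosomes differed in how much of their FOXA2 binding was unmarked. On the 23 chromosomes with at least 50 SW620 peaks the share ran from 29.1% (23.8 to 35.1) on chromosome 19 to 53.5% (46.6 to 60.3) on chromosome 21. The interval lay above the 44.9% of the whole list on 6 chromosomes, which were 3, 5, 7, 10, 16 and 21. It lay below on 8, which were 1, 6, 12, 14, 15, 17, 19 and 22. Without the peaks beside the longest empty stretches, chromosome 21 stood at 47.8%, chromosome 10 at 51.3% and chromosome 19 at 24.6%, where the whole list stood at 43.5%. Of the 107 unmarked peaks of chromosome 21, 30 lay from 10 to 11 Mb and 20 from 9 to 10 Mb. The latter window was not among the peaks left out. The share of chromosome 21 without both windows was not counted. Chromosome 19 had the most active regions per Mb, 73.4, and chromosomes 22 and 17 followed with 57.4 and 56.4. These were also the chromosomes with the lowest unmarked shares, 33.3% on chromosome 22 and 34.3% on chromosome 17. The order did not hold further down. Chromosomes 16 and 20 came next, with 38.8 and 34.3 active regions per Mb, and their unmarked shares were 50.5% and 48.4%. Chromosomes 1 and 15, with 31.7 and 31.5 per Mb, had 39.8% and 39.7%.

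By length, unmarked peaks numbered 1.94 per Mb of covered span over all chromosomes. Among the 23 chromosomes they were densest on chromosomes 20 (3.84 per Mb) and 10 (3.73) and sparsest on chromosomes 18 (0.695), X (0.959) and 4 (0.990). Marked SW620 peaks were sparse on the same 3 chromosomes, with 0.962, 1.15 and 1.13 per Mb against 2.39 over all. SW480 FOXA2 peaks stood at 1.58, 1.92 and 1.55 per Mb on them, against 1.82 over all. On chromosome 10, 493 unmarked SW620 peaks stood beside 249 SW480 peaks, of which 234 were unmarked in SW480. On chromosome 18 there were 52 beside 118, of which 112 were unmarked in SW480. Both chromosomes were named for their density of unmarked SW620 peaks.

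**Figure D5:**
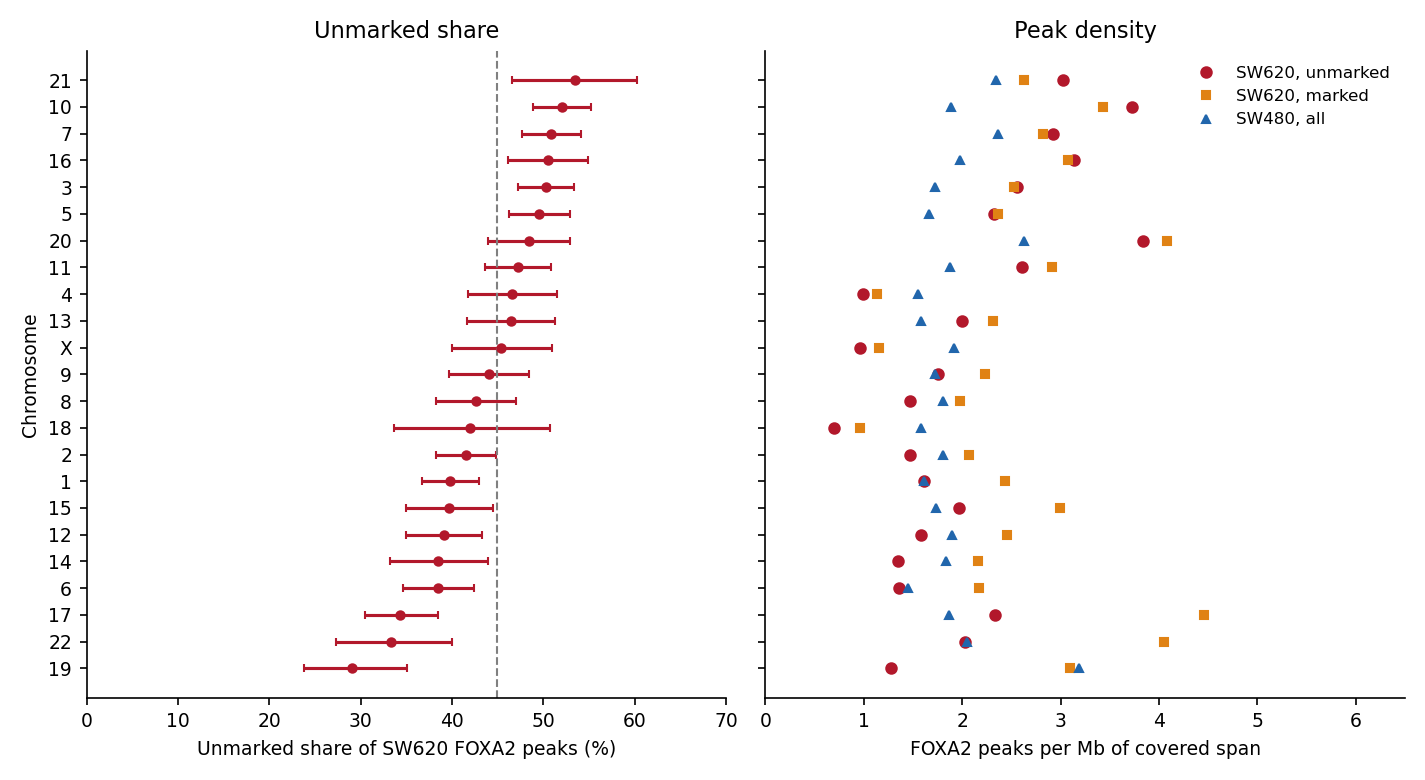
Left, unmarked share of the SW620 FOXA2 peaks of each chromosome with at least 50 peaks, with 95% Wilson intervals and the share of the whole list, 44.9%, as a dashed line. Right, FOXA2 peaks per Mb of covered span for unmarked SW620 peaks (circles), marked SW620 peaks (squares) and all SW480 peaks (triangles). Chromosome 21 had the highest unmarked share, 53.5%, and chromosome 19 the lowest, 29.1%.

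The peaks farthest from any mark were all on chromosome Y, where SW620 had 18 FOXA2 peaks, none of them marked, and 6 active regions. The 5 farthest lay between 9908966 and 9960992 and were 3367835 to 3419543 bp from an active mark of SW620. SW480 had 25 FOXA2 peaks on chromosome Y, and all 25 were unmarked there as well.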

How the data were processed

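Per the file headers, the authors ran HOMER findPeaks on every library, with that line's input as control: histone marks in histone style (at least 4-fold over input and local background) and FOXA2 in factor style (at least 2-fold), at a false discovery rate of 0.001. The build is hg19 per the submitters' processing notes. Aligner and HOMER version: details not given in the sources used here. The deposited score is 1 in every row and was not used. Start and end were the values used. Groups came from the sample titles, with 1 library each, so no test was run.

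Overlaps and distances (edge to edge, 1 for adjacent bases) came from scripts in pandas 2.3.3 and numpy 2.4.6. They were correct for 100% of 2000 simulated peaks, and bedtools 2.31.1 gave the same 5549 unmarked peaks. Shares carry 95% Wilson intervals (scipy 1.17.1). The unmarked span runs from the first to the last region of each chromosome without its longest empty stretch. Individual peaks were named by list order or distance, 5 per rule, and the fullest windows by count. The peaks and rules were chosen with earlier results of these data known. Alternatives changed the membership rule, list length, chromosomes, grouping of neighbours and peak width. No sequence of the peaks was used here.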

Additional observations from a re-analysis of the deposited data

How the results depend on the processing

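Of 46 values from 6 results under 8 alternatives (6 planned, 2 added), 33 stayed within the 95% interval of the reported value. The unmarked share of the list, 44.9% as reported, was 42.6% with no active mark allowed within 1 kb, 46.5% with the peak centre as the criterion, 43.3% when H3K36me3 was barred as well, 37.0% in the first-listed 50% and 43.5% without peaks beside the longest empty stretches. The median distance of unmarked peaks to an SW620 mark, 25811 bp as reported, was 28382, 23695, 23104.5 and 23241 bp with the 1 kb limit, the centre criterion, the first-listed 50% and the empty stretches left out. The share on an SW480 active mark was 7.72% by the centre criterion and 7.87% in the first-listed 50%, where the share on SW620 H3K36me3 was 2.89% and that matched by an SW480 FOXA2 peak 4.29%, which is 1.65 times the reported value. The moves of the unmarked share under the 1 kb limit, the centre criterion and the fourth mark follow from their construction. So do the moves of the median distance under the 1 kb limit and the centre criterion. For the rest, including the share on an SW480 active mark by the centre criterion, the cause was not tested. Leaving out the peaks beside empty stretches and narrowing each peak to the width of the SW480 peaks were chosen after seeing the data. No paired analysis was possible because each antibody had 1 library per line. Regions called against a threshold limit all shares: a mark just below it counts as unmarked.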

Other observations

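Across the 23 chromosomes with at least 50 SW620 peaks, the density of unmarked SW620 FOXA2 peaks went with that of marked SW620 peaks (Pearson r 0.69, Spearman rho 0.75). With the density of SW480 FOXA2 peaks r was 0.33 and rho 0.44, and with that of active regions of SW620 r was 0.14 and rho 0.40. These are descriptions across chromosomes, which are not independent samples, and the unmarked and marked peaks share 1 library and its depth. Spacing also differed among the classes. The median distance from an unmarked peak to the next SW620 FOXA2 peak of any class was 43643 bp, against 41795 bp for peaks on H3K4me2 alone, 46389 bp for peaks on H3K4me3 and 21619 bp for peaks on H3K27ac without H3K4me3. Among the unmarked SW480 peaks, the next SW480 peak lay a median of 172047 bp away. The SW480 list holds 5207 peaks against 12372 in SW620, so a wider spacing follows in part from its length.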
